A study of Rattus norvegicus with 16 samples.

Results

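The genes described here are the subunits of respiratory complex I that are encoded in the mitochondrial genome, Mt-nd1, Mt-nd2, Mt-nd3, Mt-nd4, Mt-nd4l, Mt-nd5 and Mt-nd6. They were taken by Ensembl rat gene ID and number 7 of the 32883 IDs in the deposited counts. All 7 passed the filter on low counts, which left 15366 genes. The IDs, in the order above, are ENSRNOG00000030644, ENSRNOG00000031033, ENSRNOG00000033615, ENSRNOG00000029707, ENSRNOG00000031053, ENSRNOG00000029971 and ENSRNOG00000029042. The symbols are those given with the IDs when the genes were chosen, since neither the deposited files nor the gene table used here pairs these IDs with names. No annotation used here names any of them otherwise.

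RNA was sequenced from the hypothalamus (tissue labelled MBH-PoA) of female Wistar rats that were 21 days old, 4 rats in each of 4 groups. F3 EDC rats descended from females given a mixture of endocrine disrupting chemicals (EDC) in food, and F3 control rats from females given vehicle. F1 EDC rats were exposed in utero to the mixture through their mothers, and F1 control rats to vehicle. Dosing of the mothers is labelled as starting 2 weeks before gestation and lasting through lactation. No source used here gives the mixture's composition or dose, the number of litters, or whether any rats were littermates, so p-values measure the spread between these 16 libraries. Groups follow the source description, with which the treatment field agrees in every sample, since even the EDC samples have titles that begin with Control. The tissue could not be checked against marker genes, for want of gene names.

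Complex I (NADH:ubiquinone oxidoreductase) takes electrons from NADH into the respiratory chain and pumps protons across the inner mitochondrial membrane. Its mitochondrially encoded subunits form the core of the membrane arm, and the other subunits are encoded in the nucleus. Mitochondrial DNA is transcribed from both strands into long RNAs that are cut into individual messages, mostly at the tRNAs between them. Mt-nd6 is the one protein gene in the light-strand transcript, whereas the other 6 genes here lie in the heavy-strand transcript. Neurons depend heavily on this pathway for ATP.

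A library held between 5655354 and 35981898 reads assigned to genes, the shallowest being F1 control replicate 4. Reads that mapped to several places, which are counted in no gene, made up 15.7% to 51.6% of a library. They averaged 24.7% ± 13.6 in F3 EDC, 30.9% ± 11.1 in F3 control, 46.2% ± 4.11 in F1 EDC and 35.3% ± 10.6 among F1 controls (SD, n = 4 each). F1 and F3 libraries also differ in the lane number their files carry, so a difference of generation cannot be told apart from one that goes with that number. Values below are CPM, counts scaled to the library's gene reads with TMM factors, from the column that holds each gene's own strand. CPM is not divided by gene length, so it is compared between libraries and not between genes.

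The strand columns set Mt-nd5 and Mt-nd6 apart from the other 5 genes. Over all 16 libraries, 94.4% of the reads at Mt-nd6 lay on the strand opposite to the gene, that is, in the orientation of the heavy-strand transcript. At Mt-nd5, 11.2% lay on the opposite strand, in the orientation of Mt-nd6. Opposite-strand shares were 0.176% at Mt-nd1, 0.195% at Mt-nd2, 0.804% at Mt-nd3, 0.272% at Mt-nd4 and 1.01% at Mt-nd4l. Over all genes of a library the share ran from 1.51% to 1.87%. It was 1.70% to 1.87% in the F3 libraries and 1.51% to 1.64% in the F1 libraries, without overlap. These pooled shares hide differences between groups. At Mt-nd1 the share was 0.384% to 0.450% in F1 EDC and 0.125% to 0.188% in F1 control, and at Mt-nd2 it was 0.235% to 0.338% in F1 EDC and 0.0973% to 0.170% in F1 control, both without overlap. Mt-nd3 and Mt-nd4l differed between generations, as the share over all genes also did. At Mt-nd3 it averaged 1.40% in F3 EDC and 1.34% in F3 control, against 0.0645% in F1 EDC and 0.0382% among F1 controls, and the F3 and F1 ranges did not overlap. At Mt-nd4l it averaged 1.83% in F3 EDC and 1.16% in F3 control, against 0.0959% in F1 EDC and 0 reads in F1 control. How many of all genes lacked overlap in this share was not counted for any comparison, so how unusual these differences are is unknown.

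Mt-nd5 and Mt-nd6 also shared reads. Counting without regard to strand lost 1882 to 26455 reads per library at Mt-nd5 and 1882 to 26494 at Mt-nd6, and the 2 losses differed by at most 1810 reads. A read that covers both genes enters the count of one on its own strand and that of the other on the opposite strand, and is dropped as ambiguous in unstranded counting. These shared reads came to between 25.5% and 35.4% of the reads at Mt-nd6 (median 29.4%). The files do not split them by strand. How much of the Mt-nd6 count could be heavy-strand reads put on the wrong strand depends on the rate assumed. At the rate pooled over the other 5 heavy-strand genes, which Mt-nd1 and Mt-nd2 dominate, such reads would make up 1.16% to 7.61% of a library's Mt-nd6 count. At the rate of Mt-nd3 alone they would make up 14.9% to 26.7% in F3 EDC and 30.5% to 56.2% in F3 control, against 0.345% to 1.29% in F1 EDC and 0.217% to 0.763% in F1 control. At that of Mt-nd4l they would make up 20.3% to 29.3% in F3 EDC and 12.8% to 64.6% in F3 control. The files do not say which rate applies at Mt-nd6.

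**Figure D1:**
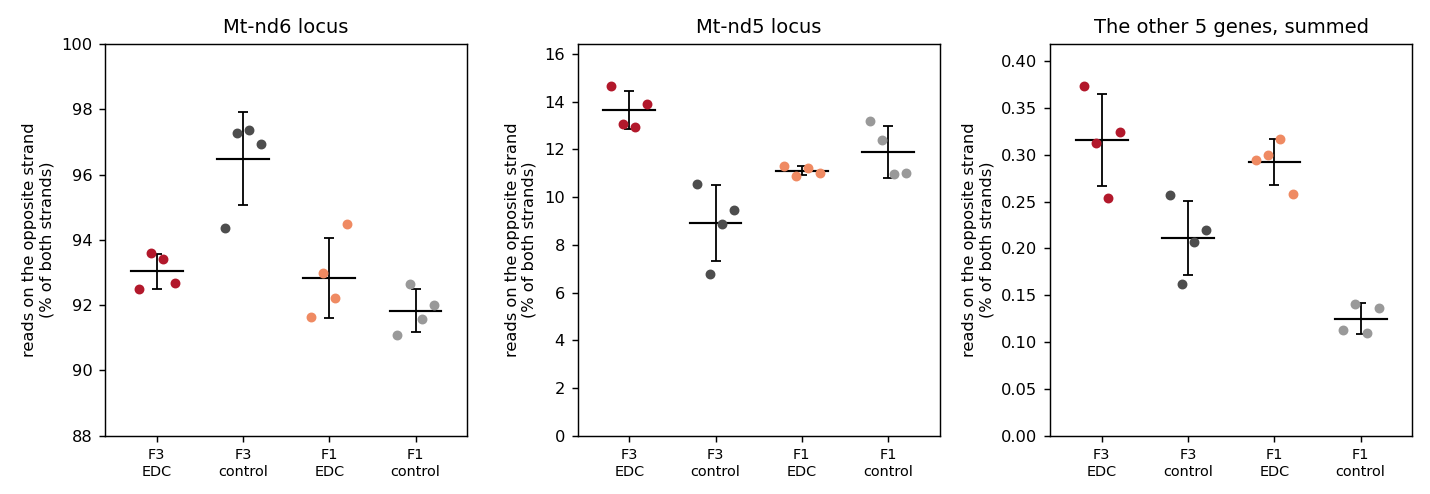
Percent of reads on the opposite strand (vertical axes) at Mt-nd6, at Mt-nd5 and, summed, at the other 5 genes, in the 4 groups; points are libraries, lines are means and bars SD. The axis of the Mt-nd6 panel does not start at 0, and the other axes do; F3 control averages highest at Mt-nd6 (94.4% to 97.4%) and lies lowest at Mt-nd5 (6.79% to 10.6%).

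Mt-nd4, a proton-pumping subunit related to antiporters, had very few counts. Its own-strand count was 50 to 1043 per library, or 3.26 to 43.8 CPM, against 1995 to 14232 counts for Mt-nd4l, a small subunit of the membrane arm whose gene lies directly upstream and shares a message with it. Mt-nd4 reads came to between 1.49% and 7.80% of Mt-nd4l reads in a library (median 2.56%), although Mt-nd4 is the longer gene. Its CV within groups ran from 22.9% to 66.7%, whereas that of Mt-nd5 ran from 6.16% to 14.9%. The Mt-nd4 values below are therefore far less precise than those of the other genes.

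In F1, all 7 mitochondrial complex I genes had lower fitted levels in EDC rats than in controls, and all but Mt-nd4 passed the threshold. The comparison asks how exposed rats differed from vehicle rats of the same generation. Of the 7 genes, 6 passed the threshold as lower and 0 as higher, and the seventh, Mt-nd4, had a log2 fold change of -1.11 and did not pass. In the whole table, 27.0% of genes were called lower and 52.4% in either direction (25.4% higher), so a call alone is common in this comparison. The median log2 fold change was -0.64 over the 7 genes and -0.0042 over all genes tested. In bulk tissue, fewer cells of a type and less RNA per cell cannot be told apart.

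Mt-nd1, the subunit next to the quinone-binding site, had 2279, 1755, 2467 and 2027 CPM in F1 EDC and 4456, 4138, 4173 and 2935 CPM in F1 control (replicates 1 to 4). Every EDC library lay below every control library, and the lowest control was the shallowest library of the series. The log2 fold change was -0.88 (SE 0.16; edgeR quasi-likelihood adjusted p = 0.000384), or 1.84-fold lower in EDC.

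Mt-nd2, an antiporter-like proton-pumping subunit, had 4370, 4112, 4027 and 4714 CPM in F1 EDC and 8065, 6767, 7185 and 6526 CPM in F1 control. The groups did not overlap here either, and the EDC values lay within a narrow band. The log2 fold change was -0.73 (SE 0.15; edgeR adjusted p = 0.000950).

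Mt-nd3, which carries a flexible loop near the quinone site, had 884, 725, 732 and 866 CPM in F1 EDC and 1310, 1007, 1131 and 1112 CPM in F1 control. Its groups did not overlap, and its log2 fold change was -0.51 (SE 0.15; edgeR adjusted p = 0.00970). Mt-nd4l had 277, 224, 258 and 215 CPM in F1 EDC and 496, 307, 361 and 356 CPM in F1 control. It was lower in each EDC library than in any control, and its log2 fold change was -0.64 (SE 0.13; edgeR adjusted p = 0.000634).

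Mt-nd5, the antiporter-like subunit at the far end of the membrane arm, differed least. It had 2097, 1846, 2084 and 1828 CPM in F1 EDC and 2855, 2042, 2596 and 2444 CPM in F1 control. The groups overlapped through F1 control replicate 2, which lay below 2 of the EDC libraries. The log2 fold change was -0.34 (SE 0.10; edgeR adjusted p = 0.00926).

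Mt-nd6, a membrane-arm subunit, had 78.7, 59.9, 72.5 and 50.5 CPM in F1 EDC and 125, 77.8, 100.1 and 93.8 CPM in F1 control. F1 EDC replicate 1 lay just above F1 control replicate 2, and the groups were otherwise apart. The log2 fold change was -0.60 (SE 0.17; edgeR adjusted p = 0.00673). Mt-nd4 had 80, 79, 50 and 130 counts in F1 EDC and 102, 120, 213 and 64 counts in F1 control, or 4.75 ± 1.09 CPM in F1 EDC and 10.2 ± 4.56 CPM in controls (SD, n = 4). Its groups did not overlap in CPM, yet the log2 fold change of -1.11 (SE 0.52) had an edgeR adjusted p of 0.0922. It passed in 3 of 27 alternatives, among them the one without F3 EDC replicate 1.

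EDC lay wholly below control in 5 of the 7 genes in F1, and in 22.0% of all genes tested. Multimapping reads averaged 46.2% in F1 EDC and 35.3% among F1 controls. With their share as a covariate, the same 6 genes passed, as they did in each of the 27 alternatives tried. Of all genes tested, 49.3% were called with that covariate and 34.6% to 58.5% over the alternatives. Summed, the 7 genes took 1.04%, 0.943%, 1.06% and 1.07% of gene reads in F1 EDC and 1.62%, 1.59%, 1.48% and 1.34% in F1 control.

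**Figure D2:**
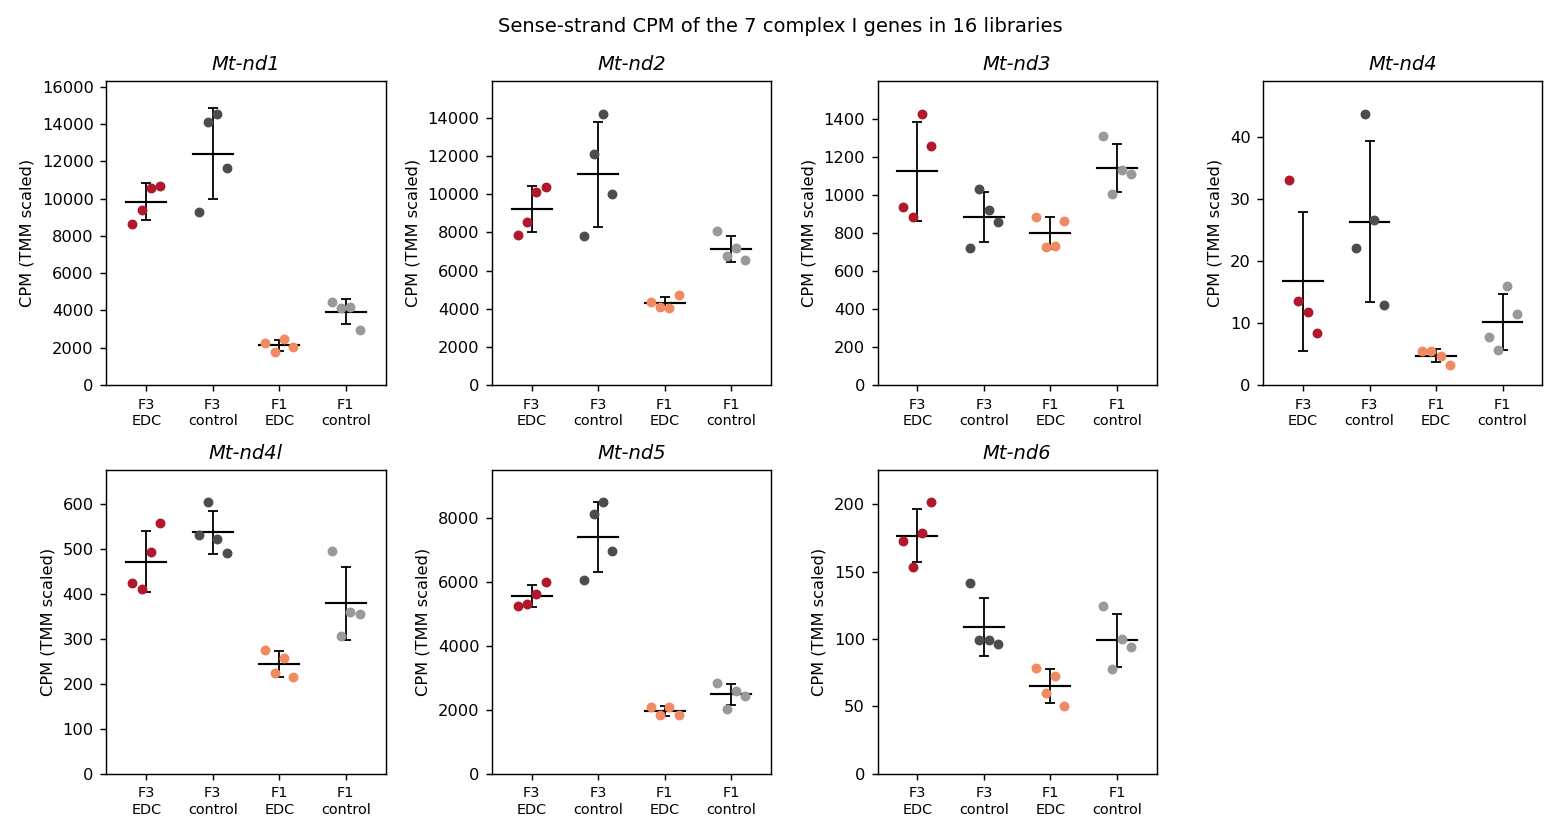
CPM (vertical axes, starting at 0) of each gene in the 16 libraries; points are libraries in replicate order, lines are group means and bars SD (n = 4). The F1 EDC libraries lie lowest for Mt-nd1 (1755 to 2467 CPM) and Mt-nd2 (4027 to 4714 CPM), and the F3 EDC libraries lie highest for Mt-nd6 (154 to 202 CPM).

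In F3, Mt-nd6 was higher and Mt-nd5 lower in rats of the EDC lineage, and the other 5 genes did not pass the threshold. The comparison asks whether ancestral exposure is accompanied by a difference. Thus 1 of the 7 genes was called higher, against 1.07% of all genes tested, and 1 of the 7 lower, against 1.87%. The same genes were the ones without overlap, Mt-nd6 with EDC above control, as 4.93% of all genes tested, and Mt-nd5 with EDC below, as 7.32%. The median absolute log2 fold change was 0.35 over the 7 genes and 0.16 over all genes tested.

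Mt-nd6 had 173, 154, 179 and 202 CPM in F3 EDC and 142, 99.0, 99.3 and 96.4 CPM in F3 control. All EDC libraries lay above all controls, and control replicate 1 lay well above the other 3 controls. The log2 fold change was 0.69 (SE 0.17; edgeR adjusted p = 0.0362), or 1.62-fold higher in EDC. F3 control replicate 1 also had the highest share of multimapping reads in its group, 43.3%, against 16.5% to 33.4% in the other controls. Without that library the log2 fold change of Mt-nd6 was 0.85 (SE 0.15; edgeR adjusted p = 0.0183).

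Mt-nd5 had 5267, 5324, 5645 and 6011 CPM in F3 EDC and 6078, 8127, 8505 and 6988 CPM in F3 control. The groups did not overlap, but the highest EDC library and the lowest control, again replicate 1, were close. The log2 fold change was -0.42 (SE 0.10; edgeR adjusted p = 0.0353), or 1.33-fold lower in EDC. Both calls stood near the threshold. Mt-nd5 passed in 14 of 28 alternatives, with edgeR adjusted p up to 0.127, and lost its call without any one F1 EDC library, without F3 EDC replicate 1, 2 or 3, or without F3 control replicate 2, 3 or 4. Mt-nd6 passed in 19 of 28, with edgeR adjusted p up to 0.187, and lost its call without F3 EDC replicate 1, 3 or 4, or without F3 control replicate 2, 3 or 4. Of all genes tested, 0.222% to 3.49% were called when each library was left out. A fit without the libraries over 40% multimapping dropped F3 EDC replicate 4, F3 control replicate 1, all 4 F1 EDC libraries and 2 of the 4 F1 controls, and so kept 3 libraries in each F3 group and fewer from which to estimate the spread. In it edgeR called 0 of the 7 genes and 0 genes of the whole table, with 4 of the 7 and 2240 of all genes at an unadjusted p under 0.05. Mt-nd6 then had a log2 fold change of 0.81 and Mt-nd5 of -0.51.

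The other genes of the heavy-strand transcript gave no call in F3. Mt-nd1 had 8627, 9396, 10570 and 10692 CPM in F3 EDC and 9291, 14112, 14554 and 11612 CPM in F3 control, and its log2 fold change was -0.34 (SE 0.16; edgeR adjusted p = 0.318). Mt-nd2 had 7869, 8538, 10093 and 10368 CPM in F3 EDC and 7829, 12096, 14221 and 10031 CPM in F3 control, and its log2 fold change was -0.26 (SE 0.15; edgeR adjusted p = 0.417). Control replicate 1 lay among the EDC values for Mt-nd1 and below all of them for Mt-nd2, whereas control replicates 2 and 3 lay above every EDC library for both genes.

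Mt-nd3 had 936, 882, 1428 and 1255 CPM in F3 EDC and 721, 1033, 921 and 859.5 CPM in F3 control. Its log2 fold change was positive, 0.35 (SE 0.15; edgeR adjusted p = 0.249), with F3 EDC replicates 3 and 4 above all controls. Mt-nd4l averaged 472.5 ± 67.9 CPM in F3 EDC and 537.5 ± 47.8 CPM in F3 control (SD, n = 4), and its log2 fold change was -0.19 (SE 0.13; edgeR adjusted p = 0.526). Mt-nd4 had 1043, 285, 298 and 77 counts in F3 EDC and 592, 872, 619 and 140 counts in F3 control, and its log2 fold change was -0.64 (SE 0.46; edgeR adjusted p = 0.535).

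The 7 genes together took 2.38%, 2.50%, 2.93% and 2.61% of gene reads in F3 EDC and 2.29%, 3.25%, 3.68% and 2.95% in F3 control. The groups overlapped, since control replicate 1 had the lowest share of all 8 libraries.

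The EDC effects of the generations differed for Mt-nd6 and Mt-nd3. The interaction contrast, which takes the F1 log2 fold change from the F3 one, came to 1.30 for Mt-nd6 (SE 0.24; edgeR adjusted p = 0.000339) and 0.86 for Mt-nd3 (SE 0.21; edgeR adjusted p = 0.00401). This made 2 of the 7 genes with a higher value in F3 and 0 with a lower one; of all genes tested, 21.8% were called in each direction. For Mt-nd5 the contrast was -0.08, with a 95% interval of -0.36 to 0.21 (edgeR adjusted p = 0.702). Mt-nd1, Mt-nd2, Mt-nd4 and Mt-nd4l had contrasts of 0.45 to 0.55 with edgeR adjusted p between 0.0602 and 0.625. On unstranded counts edgeR called 1 of the 7 genes, and the Mt-nd6 contrast was 0.07 (SE 0.16; edgeR adjusted p = 0.784). DESeq2 called 5 of the 7 genes, and edgeR called 4 without F3 control replicate 3 and 4 with a stricter filter on low counts. Of all genes tested, 42.4% were called on unstranded counts, 45.5% by DESeq2, 41.9% without that library and 50.3% with that filter.

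**Figure D3:**
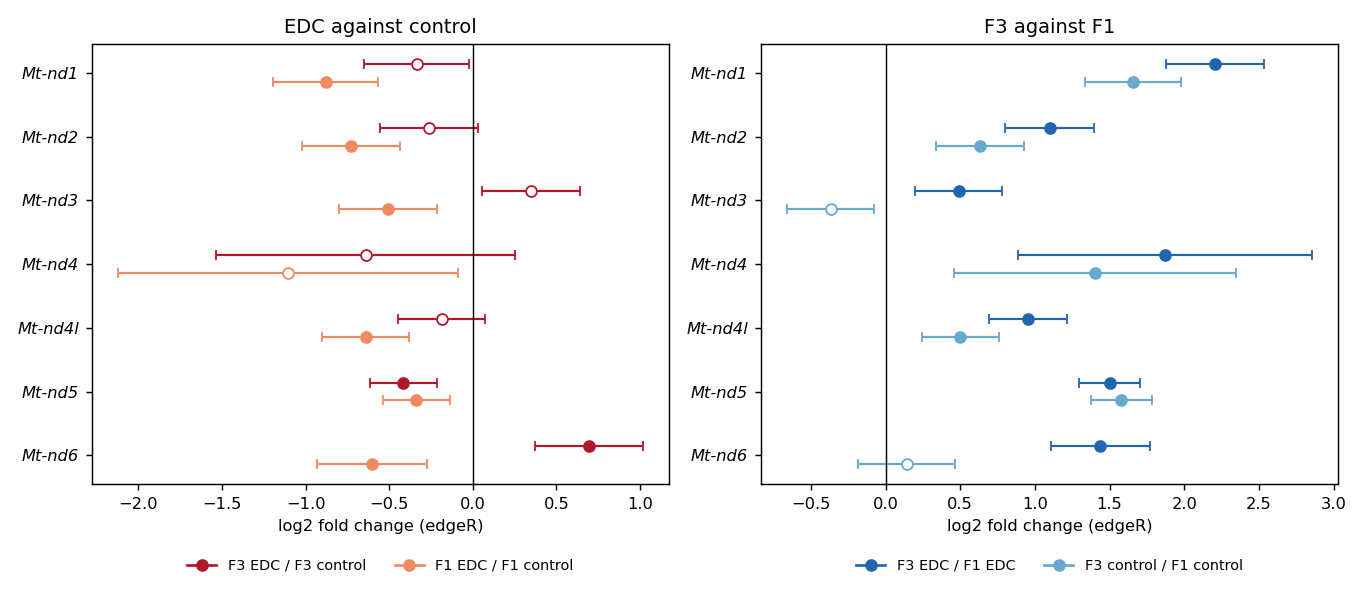
Log2 fold changes (horizontal axes) of the 7 genes in edgeR, EDC over control at left and F3 over F1 at right; bars are 95% intervals, filled points passed an adjusted p of 0.05 and open points did not. In the left panel Mt-nd6 stands at 0.69 in F3 and at -0.60 in F1; in the right panel Mt-nd1 stands at 2.20 between EDC groups and at 1.66 between controls.

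Between generations, most of the genes were higher in F3, in a contrast that also holds the change of lane number. F3 control exceeded F1 control in 5 of the 7 genes, where 14.6% of all genes were called higher and 12.9% lower, and 0 of the 7 were called lower. F3 EDC exceeded F1 EDC in 7 of 7, where 27.0% of all genes were called higher. The median log2 fold change over the 7 genes was 1.44 between the EDC groups and 0.63 between the controls, against 0.0062 and -0.02 over all genes tested. These contrasts share libraries with the EDC contrasts above.

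Mt-nd1 and Mt-nd5 differed most between the controls. Mt-nd1 averaged 12392 ± 2440 CPM in F3 control and 3925 ± 676 CPM in F1 control (SD, n = 4), and its log2 fold change was 1.66 (SE 0.16; edgeR adjusted p = 3.89e-06). Mt-nd5 averaged 7424 ± 1105 CPM in F3 control and 2484 ± 340.0 CPM in F1 control, and its log2 fold change was 1.58 (SE 0.10; edgeR adjusted p = 1.98e-09). For both, and for no other gene of the 7, every F3 control library lay above every F1 control library, as it did for 13.6% of all genes tested. Mt-nd2 rose by 0.63 on the log2 scale (SE 0.15; edgeR adjusted p = 0.00604) and Mt-nd4l by 0.50 (SE 0.13; edgeR adjusted p = 0.00899), both with overlap. Without the libraries over 40% multimapping, Mt-nd4l lost its call (0.45, SE 0.18; edgeR adjusted p = 0.123).

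Mt-nd3 and Mt-nd6 did not pass between the controls. Mt-nd3 averaged 884 ± 130.2 CPM in F3 control and 1140 ± 126 CPM in F1 control, and its log2 fold change was -0.37 (SE 0.15; edgeR adjusted p = 0.0813). Mt-nd6 averaged 109 ± 21.8 CPM in F3 control and 99.1 ± 19.5 CPM in F1 control, and its log2 fold change was 0.14 (95% interval -0.19 to 0.47; edgeR adjusted p = 0.585). Mt-nd4 passed narrowly, at 1.40 (SE 0.48; edgeR adjusted p = 0.0466), and lost the call in 15 of 27 alternatives, among them those without F1 control replicate 1, 2 or 4, F3 control replicate 1, 2 or 3, F1 EDC replicate 1, 2 or 3, or F3 EDC replicate 2 or 3.

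Between the EDC groups Mt-nd6 did differ, with 177 ± 19.7 CPM in F3 EDC and 65.4 ± 12.6 CPM in F1 EDC (SD, n = 4). Its log2 fold change was 1.44 (SE 0.17; edgeR adjusted p = 2.61e-06), or 2.71-fold higher. Mt-nd5 was 2.83-fold higher (edgeR adjusted p = 7.24e-10) and Mt-nd1 4.61-fold, a difference of 2.20 on the log2 scale (SE 0.17; edgeR adjusted p = 6.35e-08). Mt-nd3 moved least, by 0.49 (SE 0.15; edgeR adjusted p = 0.0118), and was the only one of the 7 whose F3 EDC and F1 EDC values overlapped. For the other 6 every F3 EDC library lay above every F1 EDC library, as it did for 25.8% of all genes tested. With the multimapping share as a covariate, Mt-nd3 (edgeR adjusted p = 0.0510) and Mt-nd4 (edgeR adjusted p = 0.0709) lost their calls.

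The make-up of the complex I reads differed between generations, a comparison that needs no scaling between libraries. Mt-nd1 took 36.7% to 38.0% of the 7 genes' reads in F3 EDC and 37.5% to 39.1% in F3 control, against 20.1% to 25.6% in F1 EDC and 21.8% to 28.9% in F1 control. Mt-nd2 took 33.7% to 35.6% in F3 EDC and 31.8% to 36.6% in F3 control, against 41.7% to 48.6% in F1 EDC and 46.2% to 48.4% in F1 control. Mt-nd3 took 3.57% to 5.02% in F3 EDC and 2.37% to 2.93% in F3 control, against 7.58% to 8.92% in F1 EDC and 7.02% to 8.25% in F1 control. For each of these 3 genes the F3 and F1 ranges did not overlap. The shares are parts of a whole, so a larger share of any gene leaves less for the others. No count of overlap over all genes was made for such shares, between or within generations.

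Some shares also differed within a generation. Between F3 EDC and F3 control, Mt-nd3 and Mt-nd6 were the genes whose shares did not overlap, both higher in EDC. Mt-nd6 took 0.622% to 0.742% in F3 EDC and 0.256% to 0.576% in F3 control. Mt-nd5 took 18.8% to 21.6% in F1 EDC and 14.2% to 18.1% in F1 control, without overlap and with the higher share in EDC. Even so, Mt-nd5 averaged fewer CPM in F1 EDC (1964) than in F1 control (2484). In F3 it took 19.9% to 22.6% in EDC and 21.9% to 24.7% in control, with overlap.

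**Figure D4:**
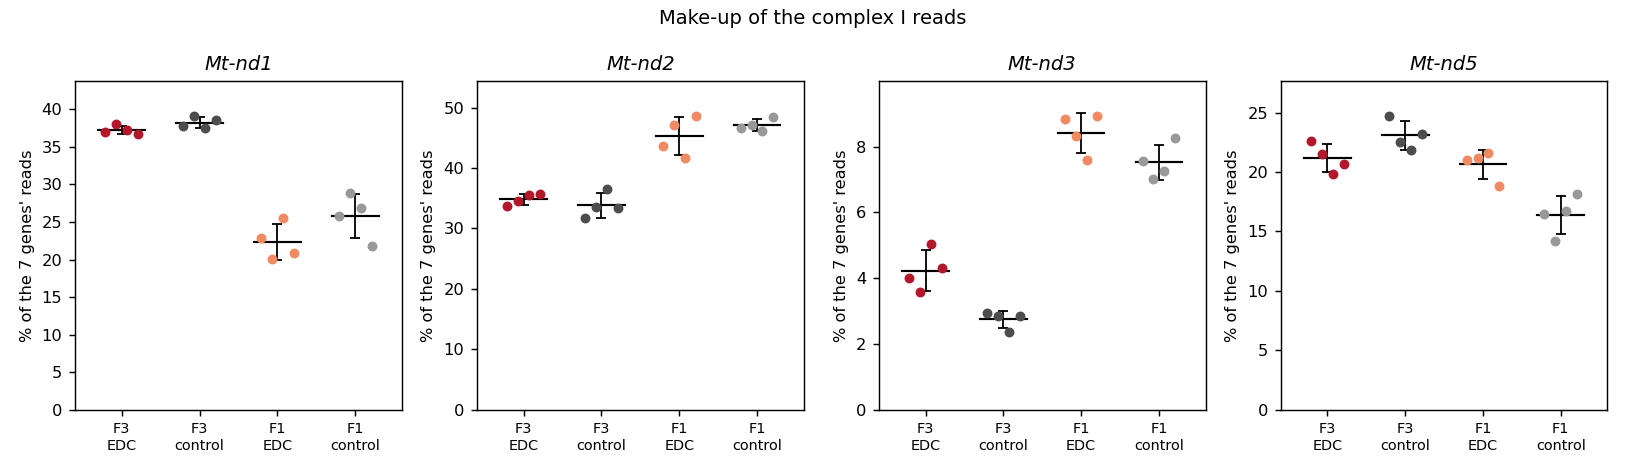
Share of the 7 genes' reads (percent, vertical axes starting at 0) taken by Mt-nd1, Mt-nd2, Mt-nd3 and Mt-nd5; points are libraries, lines are group means and bars SD (n = 4). Mt-nd1 takes 37.2% on average in F3 EDC and 22.4% in F1 EDC, whereas Mt-nd2 takes 34.9% in F3 EDC and 45.3% in F1 EDC.

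The ratio of light-strand to heavy-strand reads averaged lowest in F3 control. Mt-nd6 reads per 1000 reads of the other 6 genes were 7.48, 6.25, 6.33 and 6.98 in F3 EDC and 5.79, 2.75, 2.56 and 3.21 in F3 control. They were 7.94, 6.91, 7.58 and 5.23 in F1 EDC and 7.26, 5.45, 6.47 and 7.01 in F1 control. F3 EDC and F3 control did not overlap, although F3 control replicate 1 came close, and the F1 groups overlapped. F3 EDC lay within the range of F1 EDC.

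The opposite-strand share at Mt-nd6 averaged highest in F3 control. This share holds the own-strand Mt-nd6 count, as the CPM and the ratio above do, so it is not a separate line of support. It was 92.5%, 93.6%, 93.4% and 92.7% in F3 EDC and 94.4%, 97.3%, 97.4% and 96.9% in F3 control. The exact permutation test gave a two-sided p of 0.0286, the smallest that 4 against 4 can give, and 0.0571 adjusted over the 4 comparisons. F3 control against F1 control, at 91.1% to 92.7% in F1 control, gave the same p and adjusted p, with all F3 controls higher. The F1 comparison gave 92.8% ± 1.23 in EDC and 91.8% ± 0.662 in control (SD, n = 4; exact two-sided permutation p = 0.200, adjusted 0.267). F3 EDC against F1 EDC gave an exact two-sided permutation p of 0.83, before and after adjustment.

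Light-strand reads over Mt-nd5 were lowest in F3 control as well. They made up 14.7%, 13.1%, 12.9% and 13.9% of the reads at Mt-nd5 in F3 EDC and 10.6%, 6.79%, 8.89% and 9.45% in F3 control, without overlap. The share in F1 EDC was 11.1% ± 0.187 and that in controls 11.9% ± 1.10 (SD, n = 4). Reads shared with Mt-nd6 enter this value, so it is not independent of the Mt-nd6 count.

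Heavy-strand reads over Mt-nd6 followed Mt-nd5 instead. A heavy-strand read that covers both genes enters both of these counts, so they are not independent. Per 100 own-strand reads of Mt-nd5 there were 42.5 ± 1.79 in F3 EDC, 42.3 ± 2.21 in F3 control, 43.2 ± 2.89 in F1 EDC and 44.7 ± 2.51 among F1 controls (SD, n = 4 each), and the 4 ranges overlapped. Counting without strand therefore reads mainly the heavy strand at Mt-nd6. On unstranded counts the log2 fold change of Mt-nd6 in F3 was -0.30 (SE 0.12; edgeR adjusted p = 0.187), opposite in sign to the stranded value, and no gene of the 7 was called in that comparison (3 at an unadjusted p under 0.05). Of all genes tested, 2.81% were called in it. Between the controls, the log2 fold change of Mt-nd6 was 1.34 on unstranded counts (SE 0.12; edgeR adjusted p = 1.18e-07), whereas the stranded value was 0.14.

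**Figure D5:**
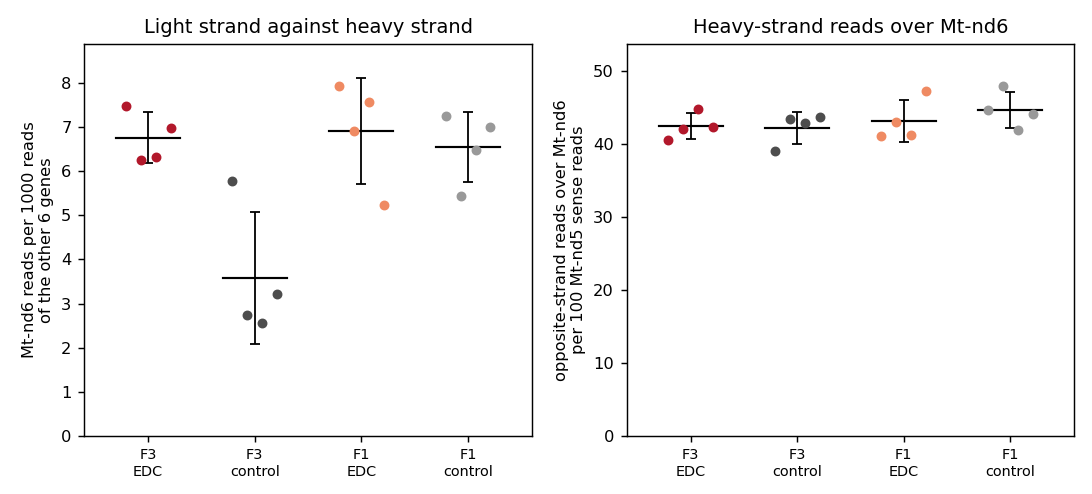
Mt-nd6 reads per 1000 reads of the other 6 genes (left) and opposite-strand reads over Mt-nd6 per 100 own-strand Mt-nd5 reads (right) in the 4 groups; points are libraries, lines are means and bars SD (n = 4), and both axes start at 0. The left panel shows F3 control at 2.56 to 5.79 with replicate 1 apart, below F3 EDC at 6.25 to 7.48; the right panel shows all libraries between 39.0 and 48.0.

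The heavy-strand genes did not all vary together. Over the 16 libraries, log2 CPM of Mt-nd1, Mt-nd2, Mt-nd4l and Mt-nd5 correlated pairwise with Pearson r between 0.893 and 0.974, group differences included. With each group's mean removed, r for these 6 pairs lay between 0.398 and 0.753. For the pairs with Mt-nd4, the gene with very few counts, it lay between -0.126 and 0.238 on the same centred scale. Uncentred, Mt-nd4 had r between 0.744 and 0.801 with Mt-nd1, Mt-nd2, Mt-nd4l and Mt-nd5. With those same genes Mt-nd3 had r between 0.172 and 0.479 uncentred and between 0.554 and 0.759 centred. These are descriptions over libraries that share groups and lane numbers, and no test was made of them.

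By likeness of pattern, the gene closest to the mean log2 CPM of the 6 heavy-strand genes was ENSRNOG00000011227, with a Pearson r of 0.981 over 16 libraries, followed by ENSRNOG00000031766 at 0.972. ENSRNOG00000031766 averaged 11100 CPM in F3 EDC, 12348 in F3 control, 3974 in F1 EDC and 6378 in F1 control, the order that Mt-nd1, Mt-nd2, Mt-nd4l and Mt-nd5 also showed. Such likeness was common, since 331 of the 10200 genes compared had an r over 0.9. Mt-nd6 had fewer genes like it, with 1 over 0.9. That was ENSRNOG00000021133, at 0.926, and the next was ENSRNOG00000023376, at 0.880. The files do not pair these IDs with names.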

How the data were processed

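Each deposited file holds whole-number read counts per gene in the layout of the aligner STAR (unstranded and both strands), after 4 summary lines that were kept out of library sizes and tests. The authors' tools, per the submitters' processing notes, were Trimmomatic 0.33 and TopHat2 2.1, with genome build rn6, and no source used here gives a STAR version. Multimapping reads are in no gene's count. Per the labels' protocols, single reads of 100 cycles were sequenced, with 4 samples per lane. All files of a generation carry the same lane number, however, which does not match that statement.

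The fourth column was taken as the gene's own strand, since its gene counts exceeded those of the third by at least 52.5 times in every library. edgeR 4.0.16 in R 4.3.3 was run with filterByExpr (count minimum 10), TMM factors and the robust quasi-likelihood F test on 4 group means over all 16 libraries, adjusted by Benjamini-Hochberg over 15366 genes, with a two-sided threshold of 0.05. The SE is the log2 fold change over the square root of F, and 95% intervals take it as normal. Scripts were tested on simulated data. Alternatives were RLE and upper quartile factors, factors without the 7 genes, DESeq2 1.42.0, limma 3.58.1 voom with quality weights, 2 other filters, each generation alone, a block for the replicate number, unstranded counts, the multimapping share as a covariate, leaving out the libraries over 40% multimapping, and leaving out each library.

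The genes and lists were chosen with earlier results of these data known. The planned permutation tests of sums and ratios over the genes, and the planned correlation of their sum with multimapping, are not given. Planned lists of other genes by symbol were not run, because 0 of the 32883 IDs could be paired with a symbol in the gene table (GRCr8). All 7 genes are named, with the 2 other IDs most like the heavy-strand mean and the 2 most like Mt-nd6, among genes whose log2 CPM averaged 3 or more (prior count 2). No 2 replicates held identical counts.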

Additional observations from a re-analysis of the deposited data

Results flagged for a closer look

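Mt-nd6 in F3 control replicate 1, at 142 CPM, lay far above the other 3 libraries of its group (96.4 to 99.3 CPM), and the opposite-strand share at Mt-nd6 in that library, 94.4%, lay far below theirs (96.9% to 97.4%). These were the 2 values that stood apart from their group among 44 such checks, where chance gives about 1 in 20. Chance alone would thus give about as many. Both values rest on the same own-strand Mt-nd6 count of that library.

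The EDC effect differed between generations for Mt-nd6, by 1.30 on the log2 scale (F3 minus F1), and for Mt-nd3, by 0.86, each by the interaction contrast in edgeR (adjusted p = 0.000339 and 0.00401). Such a call is common, since 21.8% of all genes tested were called higher and 21.8% lower in this contrast. The size for Mt-nd6 fell to 0.07 (adjusted p = 0.784) on unstranded counts.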

How the results depend on the processing

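The alternatives named in processing left the 6 F1 calls and the 7 calls of F3 EDC against F1 EDC within 1.5 times, and the calls between F3 EDC and F3 control were the least stable. Of all genes tested, the alternatives called 34.6% to 58.5% in F1 and 35.3% to 59.7% between the EDC groups. Between F3 EDC and F3 control, edgeR called 0 of the 7 genes with no filter, 0 on unstranded counts and 0 without the libraries over 40% multimapping (3, 3 and 4 at an unadjusted p under 0.05), and 1 with the multimapping share as a covariate, and leaving out each library gave 0 to 2. Of all genes tested, 1.88%, 2.81%, 0% and 2.32% were called in those settings, in that order. Leaving out each library gave 0.222% to 3.49%. The interaction had 5 calls with DESeq2, 4 with a minimum mean log2 CPM of 1, 1 on unstranded counts, and 2 to 4 when each library was left out. The shares of all genes called were 45.5%, 50.3%, 42.4%, and 39.7% to 42.8%, in the same order. F3 control against F1 control had 3 calls without the libraries over 40% multimapping, where 21.2% of all genes were called. Unstranded counts turned the sign of Mt-nd6 in F3 (-0.30) and of the Mt-nd5 interaction (0.012); such counts add the other strand and drop reads over both genes. Further, leaving out the libraries over 40% multimapping turned Mt-nd6 between controls (-0.021) and the opposite-strand share of the 6 heavy-strand genes between controls (-0.11, log2), causes not tested. Leaving out each library gave -0.11 to 0.82 for the Mt-nd4 interaction, -0.16 to 0.034 for that of Mt-nd5, and -0.012 to 0.28 for Mt-nd6 between controls. On the log2 scale it gave -0.016 to 0.20 (F1) and -0.15 to 0.054 (F3 EDC against F1 EDC) for the light to heavy ratio, and -0.075 to 0.19 for the opposite-strand share of the 6 heavy-strand genes between controls. For the opposite-strand share at Mt-nd6 it gave -0.063 to -0.048 in F3, 0.067 to 0.082 between controls and -0.0029 to 0.0118 between EDC groups; without the libraries over 40% multimapping these were -0.0611 in F3 and 0.081 between controls, and with fewer than 4 against 4 libraries no p under 0.05 can be reached. As a share of all reads, the 7 genes differed by -0.917 in F1 and 2.01 between EDC groups (log2). Without the libraries over 40% multimapping no F1 EDC library is left, so F1 and the interaction have no such value; each generation fitted alone gives no contrast between generations, and the permutation test on the percent scale was not run. Replicate numbers did not pair the libraries (correlations of deviations -0.108 to 0.0884 over 8 pairs, 3 of them highest with their own number). With the number as a block the calls were 6 (F1), 2 (F3), 2 (interaction), 4 (controls) and 7 (EDC groups). The shares of all genes called with that block were 51.7%, 2.52%, 42.5%, 27.1% and 52.9%, in the same order. Low counts limit Mt-nd4, with 50 in its lowest library, F1 EDC replicate 3, and 130 in the deepest library, F1 EDC replicate 4. The cause of these low counts was not tested.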
